A study of Mus musculus with 6 samples.

Results

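The Igf1-Plvap endothelial cells of the mouse kidney are vessel-lining cells in which Igf1, Gpr182, Plvap and Bgn together outweighed a group of capillary genes. They numbered 1508 of the 24212 kidney cells that passed quality limits, and of 58561 cells in all libraries of the series. Members were chosen from their unique molecular identifiers (UMIs), the counted RNA molecules of a cell. A cell needed at least 3 UMIs of the endothelial genes Pecam1, Cdh5 and Emcn together, none of the leukocyte gene Ptprc and at most 2 of the macrophage genes C1qa, C1qb and C1qc. These conditions, called the endothelial gate, held 3391 cells. Within the gate, a member carried at least 2 UMIs of Igf1, Gpr182, Plvap and Bgn and more of them than of Esm1, Gpihbp1, Kdr and Npr3. The mirror image of that last condition gave 1751 capillary-side cells, which served for comparison, and 132 gate cells fell on neither side.

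The study asked whether a microfluidic device that digests, disaggregates and filters minced tissue changes what single-cell RNA sequencing recovers. Kidneys came from 12-week-old C57BL/6 mice and were digested with collagenase. The study names no transgene or drug treatment for these mice. The control library was digested by a conventional protocol for 60 min, and the platform gave 1 library from its 15 min interval and 1 from its 60 min interval. Live cells were sorted before droplet capture, and by the authors' methods the conditions of a replicate used tissue of a shared donor animal. Each condition thus had a single library, so differences between conditions have no replicate check and were not tested.

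Endothelial cells of the kidney differ between vascular beds. Fenestrated peritubular capillaries and ascending vasa recta carry diaphragms built from the protein that Plvap encodes, whereas mature glomerular capillaries lack them. Igf1 encodes a growth factor whose availability is set by binding proteins, Gpr182 an atypical chemokine receptor of endothelium, Bgn the matrix proteoglycan biglycan and Sema3d a secreted guidance cue.

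The deposited control, 15 min and 60 min libraries held 69691783, 116998401 and 112969440 UMIs in 8233, 12082 and 13719 cells. Members contributed 1058198 UMIs from 249 control cells, 525640 from 125 cells at 15 min and 4669280 from 1134 cells at 60 min. Their median depth was 4120, 4058 and 3838.5 UMIs per cell, so members were of similar depth in each library. Capillary-side cells had medians of 4301, 3760 and 3913.5 UMIs. Mitochondrial transcripts made up a median of 4.13, 3.1 and 4.66% of a member's UMIs. Between pairs of deposited libraries, 53 barcodes were shared by control and 15 min, 93 by control and 60 min and 211 by 15 and 60 min. No barcode was shared among members of different libraries, and 7 members (0.464%) had a barcode that some other cell of another library also carried.

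The label was first checked against its markers. Plvap was found in 98.8% of control members, 100% at 15 min and 99.7% at 60 min, but also in 98.3, 98.8 and 97.8% of capillary-side cells. It therefore marked the gate as a whole, and its level separated the sides, at 4562, 5005 and 4954 CPM (UMI counts of a gene scaled to the same total of UMIs in every group of summed cells) in members and 2701, 3200 and 2625 CPM on the capillary side. Igf1 was found in 49.0% of control members, 20% at 15 min and 48.1% at 60 min, and so was not detected in most members. The shares on the capillary side were 7.61, 4.33 and 10.8%. Gpr182 was found in 34.1, 33.6 and 32.8% of members and Bgn in 68.3, 56.0 and 61.6%. All these genes belong to the selection, so the values describe the choice and support nothing.

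Sema3d, the marker that the selection did not use, was found in 34.9% of control members, 26.4% at 15 min and 39.4% at 60 min, against 4.84, 4.33 and 7.29% of capillary-side cells. Droplets can hold free RNA, so the same shares were taken in proximal tubule cells, which should lack these genes. These cells were required to hold no UMI of Pecam1, Cdh5 and Emcn, so droplets with free RNA of those genes were left out and the shares may be too low as a measure of free RNA. There Igf1 was found in 0.378, 0.181 and 1.15% of cells at median depths of 5629, 7196.5 and 6154 UMIs, and Plvap in 0.472, 0.514 and 3.00%. No proximal tubule cell of the control or 15 min library held Sema3d, which allows shares of up to 0.116 and 0.0513%, and 0.0658% of them held it at 60 min. Every member was also thinned to 1000 UMIs, leaving out 4 control members, none at 15 min and 14 at 60 min. Thinned shares in members were 25.7, 9.60 and 27.9% for Igf1, 11.4, 11.2 and 12.7% for Gpr182 and 11.8, 8 and 15.1% for Sema3d. In proximal tubule cells, the thinned share of Igf1 was 0.0988, 0.0281 and 0.244%. For Igf1 the 15 min library was lowest before and after thinning, while the control and 60 min libraries changed places.

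The 4 selecting genes were rarely found together. All of them were present in 257 members (17.0%), whereas 357 (23.7%) held Plvap alone and 627 (41.6%) held neither Igf1 nor Gpr182. Plvap on its own would have selected 1443 members (95.7%), and the other 3 genes without Plvap only 529 (35.1%). The members are thus mainly the endothelial cells in which Plvap outweighed the capillary genes, and the name Igf1-Plvap holds in full for part of them. Sema3d was found in 370 of the 692 members with Igf1 (53.5%).

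Cells whose sums were nearly equal lay closer to the capillary side than to members far from the limit in Igf1, Plvap, Sema3d and Vcam1. The 72 members whose sum exceeded the capillary sum by a single UMI had 33.7 CPM of Igf1, 2522 of Plvap, 33.7 of Sema3d and 127 of Vcam1. Just outside, 83 cells with equal sums had 54.2 CPM of Igf1, 2641 of Plvap, 31.9 of Sema3d and 79.7 of Vcam1. The 951 members with a margin of at least 10 UMIs had 550 CPM of Igf1, 5848 of Plvap, 218 of Sema3d and 465 of Vcam1. Capillary-side cells had 33.4, 2717, 17.3 and 35.5 CPM of the same genes. At the lower limit of the sum, 13 members had exactly 2 UMIs and 8 cells with a single UMI were left out. These members had 221 CPM of Vcam1 and 908 of Igfbp5, and members far from the limit had 1507 CPM of Igfbp5 against 6251 on the capillary side, so in Igfbp5 they lay closer to the far members. In Igfbp3, at 982 CPM against 261 in far members and 1562 on the capillary side, they lay closer to the capillary side. Their Sema3d level, 24.5 CPM, equalled those of Bgn and Btnl9 and was the lowest nonzero level among the genes compared there. It rests on too few UMIs to place these 13 members. The Igf1 and Plvap levels follow from the selection, and whether the sides form separate clusters was not tested.

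Among gate cells, members made up 44.0% (95% interval 39.9 to 48.2) of the control library. The platform libraries had 31.9% (27.3 to 36.8) at 15 min and 46.6% (44.6 to 48.6) at 60 min. These are exact Clopper-Pearson intervals, which cover counting error only. The 15 min interval lay below both others, and the control and 60 min intervals overlapped. As a ratio, members per capillary-side cell numbered 0.862 (0.724 to 1.02) for the control library, 0.492 (0.394 to 0.612) after 15 min and 0.939 (0.865 to 1.02) after 60 min. As a share of all kept cells, members were 4.23% (3.73 to 4.78), 1.49% (1.24 to 1.77) and 11.4% (10.8 to 12.1). That share also moves with how many tubule cells each library held, since 7192 of the 8390 kept cells at 15 min met the criteria for proximal tubule cells, compared with 3177 of 5886 in the control and 3038 of 9936 at 60 min.

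**Figure D1:**
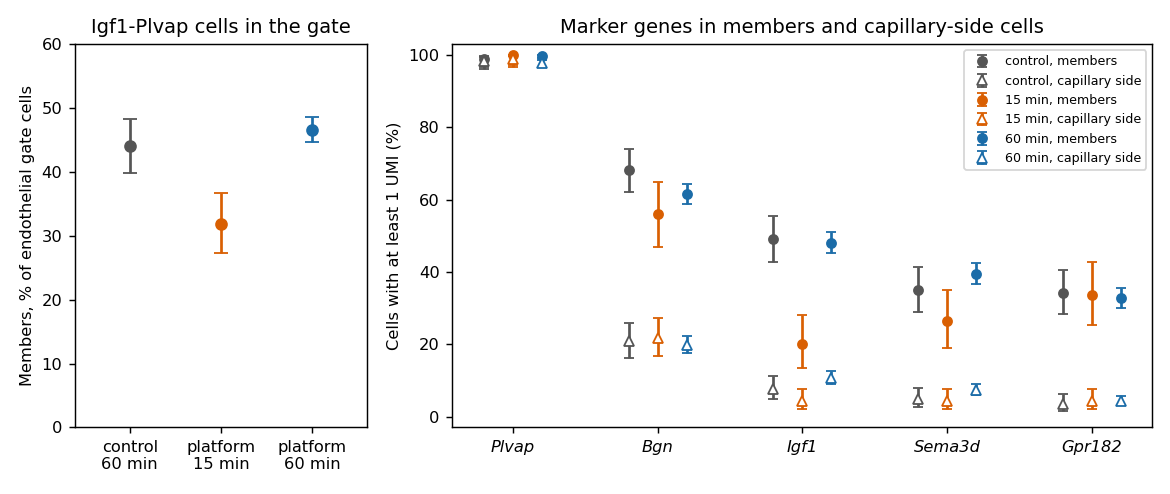
Left, members as a percentage of endothelial gate cells in each of the 3 libraries. Right, percentage of cells with at least 1 UMI of each marker in members (filled circles) and capillary-side cells (open triangles); points are single libraries, bars are exact 95% binomial intervals for counting error only, and the 15 min library is lowest for the share of members and for Igf1.

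Members were then compared with capillary-side cells of the same libraries, leaving out the 15 selecting genes. UMIs were summed per library and side, and edgeR's quasi-likelihood test was run with the library as a block. The sides were formed from the UMIs of 8 genes, so genes that vary with those 8 had to differ, and the counts describe the sides without showing that they are separate types. The p-values measure spread over 3 libraries that were each prepared differently from shared tissue, and not spread between animals. Vcam1, Sema3d and the venous factor gene Nr2f2 were among the genes higher in members, and Igfbp3, Igfbp5 and the Notch ligand gene Dll4 among those lower. Of 8722 genes tested, 471 (5.4%) were higher and 434 (4.98%) lower in members at an adjusted p under 0.05. DESeq2 called 149 higher and 108 lower, all of them among the calls of edgeR. The counts were 194 and 134 with each cell thinned to 1000 UMIs, 144 and 80 without the library block, 313 and 243 without the upper gene limit, and 243 and 172 without the 60 min library.

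Vcam1, an adhesion molecule that holds leukocytes on activated and venous endothelium, stood at 516 CPM in control members, 230 at 15 min and 331 at 60 min, against 55.1, 19.9 and 33.6 CPM on the capillary side. Every member value exceeded every capillary-side value. The log2 fold change was 3.27 (SE 0.10, adjusted p = 6.6e-21 by edgeR's quasi-likelihood test with Benjamini-Hochberg adjustment, higher in 3 of 3 libraries). Vcam1 was found in 36.1% of members and 7.14% of capillary-side cells, at median depths of 3902.5 and 3959 UMIs, and in 0.746% of proximal tubule cells, whose median depth was 6644 UMIs. After thinning, the shares were 16.8, 2.43 and 0.215%.

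Sema3d stood at 133, 131 and 169 CPM in members and 12.8, 11 and 19.7 CPM on the capillary side. The difference was of similar size in each library. Its log2 fold change was 3.17 (SE 0.13, adjusted p = 1.8e-17, edgeR's quasi-likelihood test with Benjamini-Hochberg adjustment, 3 of 3 libraries). Fibin, which encodes a secreted protein named for fin bud initiation, had 86.0, 19.0 and 66.4 CPM in members, and on the capillary side no UMI in the control and 15 min libraries and 1.19 CPM at 60 min. It had the largest log2 fold change among the genes named by rule, 6.14 (SE 0.29), with 411 UMIs over 189 members. That value was 5.11 without the upper gene limit. It was 8.76 without the 60 min library, where the capillary side held no UMI of Fibin, so 8.76 is not a measured fold. Lbp, which encodes the lipopolysaccharide-binding protein, had 132, 202 and 164 CPM in members and 23.2, 18.9 and 19.3 CPM on the capillary side, a log2 fold change of 2.99. All 3 genes were without overlap between the sides, as were 780 of the genes tested (8.94%) in the same direction.

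Further named genes were higher in members. Fxyd6, a regulator of the sodium-potassium pump, had 158, 53.3 and 144 CPM in members against 6.39, 8.97 and 12.7 CPM. Cryab, a small heat shock protein, had 194, 15.2 and 93.4 CPM against 8.78, 2.99 and 12.3 CPM. Both were lowest at 15 min within the members, and the log2 fold changes were 3.57 and 3.26. For Cryab it was 1.71 without the upper gene limit and 4.16 without the 60 min library. Cryab was found in 14.7% of members, 2.4% of capillary-side cells and 4.86% of proximal tubule cells, and after thinning in 6.51, 0.578 and 1.35%. Gsn, which encodes the actin-severing protein gelsolin, had 122, 15.2 and 91.0 CPM against 8.78, 7.97 and 17.5 CPM, so its 15 min value in members lay within the capillary-side range. Cmklr1, the chemerin receptor, and Lfng, a glycosyltransferase that modifies Notch receptors, had log2 fold changes of 2.30 and 1.96. The chemokine gene Cxcl10 had 746, 200 and 82.5 CPM against 126, 0 and 35.6 CPM, but a single control member held 168 of its 1279 UMIs and all 105 UMIs at 15 min came from 1 cell. Its call was lost without the library block and with DESeq2 (adjusted p = 0.755 after Benjamini-Hochberg adjustment, against 1.7e-08 with edgeR's quasi-likelihood test, log2 fold change 2.18, 3 of 3 libraries). For Cxcl10, the log2 fold change was 3.44 with DESeq2, 2.65 without the library block and 3.04 without the 60 min library. The remaining 5 of the 15 named genes, Ndrg2, Khdrbs3, Stbd1, Serpinb6b and Prpf40b, had log2 fold changes from 1.93 to 2.29.

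**Figure D2:**
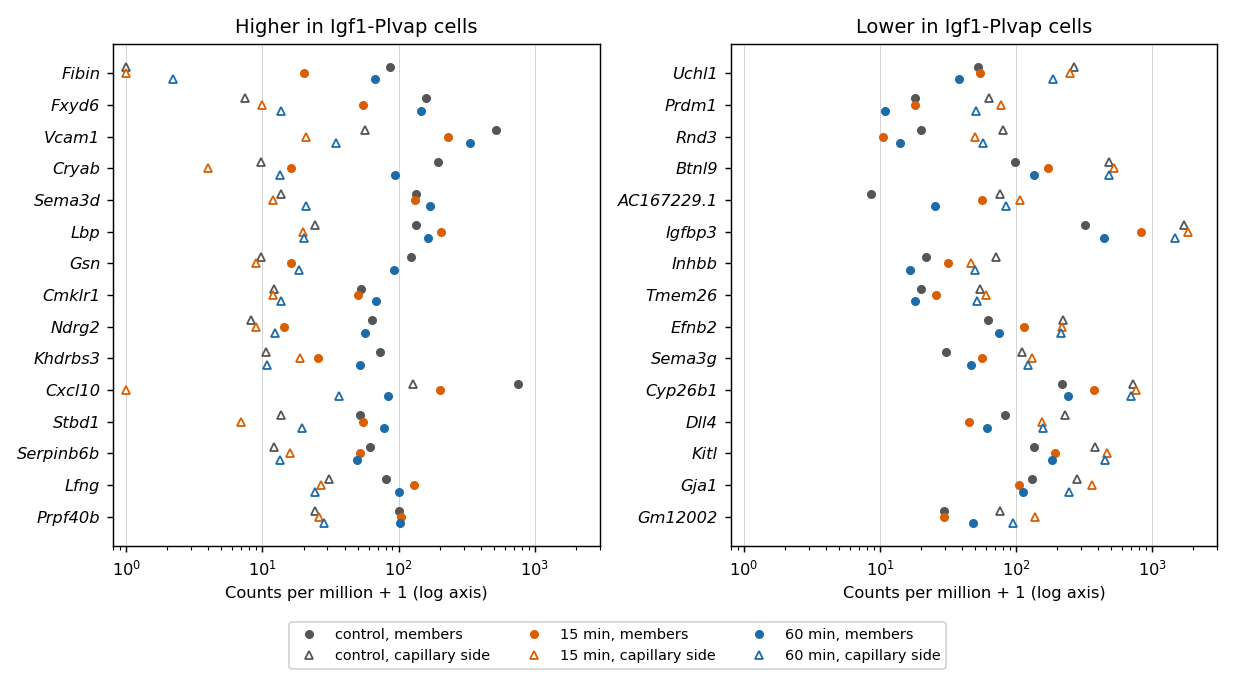
Levels of the 15 higher and 15 lower named genes, one library per point, in members (filled circles) and capillary-side cells (open triangles), in CPM plus 1 on a log axis without error bars. The naming rule required the same direction in each of the 3 libraries, so that agreement is no result. Fibin was at 0 on the capillary side in the control and 15 min libraries.

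Genes lower in members were led by Uchl1, a deubiquitinating enzyme, at 51.0, 53.3 and 37.1 CPM in members and 263, 249 and 185 CPM on the capillary side. The log2 fold change was -2.34 (SE 0.10, adjusted p = 4.5e-17 by edgeR's quasi-likelihood test with Benjamini-Hochberg adjustment, lower in 3 of 3 libraries). Igfbp3, a secreted binding protein of IGF1, had 321, 820 and 441 CPM against 1716, 1819 and 1472 CPM, a log2 fold change of -1.79. Btnl9, a butyrophilin-like surface protein, had 97.3, 171 and 135 CPM against 475, 522 and 476 CPM. For all of these the sides did not overlap, as for 479 of the genes tested (5.49%) in that direction.

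Further named genes were lower in members. Kitl, the ligand of the KIT receptor, had 133, 192 and 181 CPM in members and 378, 465 and 448 CPM on the capillary side. Cyp26b1, which degrades retinoic acid, had 217, 369 and 238 CPM against 721, 756 and 694 CPM. Gja1, which encodes the gap junction protein connexin 43, had 129, 105 and 112 CPM against 276, 359 and 244 CPM. In each of them the capillary side was higher in 3 of 3 libraries, as the naming rule required, with log2 fold changes of -1.38, -1.49 and -1.26. Prdm1, Rnd3, Inhbb and Tmem26 were at or below 30.4 CPM in members. Gm12002 was lower as well, but it is annotated as an antisense RNA, and its counts are uncertain because strand handling was not stated. The long intergenic RNA AC167229.1, which is annotated on chromosome 10 from 100129868 to 100144126 (mm10), next to Kitl at 100015630 to 100100416, had 7.56, 55.2 and 24.4 CPM against 75.1, 106 and 83.6 CPM. Its call was lost with DESeq2 (adjusted p = 0.051 after Benjamini-Hochberg adjustment, against 3.2e-09 with edgeR's quasi-likelihood test, log2 fold change -1.82, 3 of 3 libraries).

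Lists of genes for vascular beds were then read, each against the median log2 fold change of -0.0048 over all genes tested. Over all genes, 5.4% were higher and 4.98% lower in members. The counts of this and the following lists between sides stand beside these shares and were not tested against them. Of 11 vein genes, 5 could be tested and all 5 were higher in members, with a median of 0.72, and 2 of them were also called by DESeq2. Nr2f2, the transcription factor that specifies venous identity, had 250, 228 and 213 CPM in members and 59.1, 59.8 and 58.3 CPM on the capillary side. Its log2 fold change was 1.90 (SE 0.10, adjusted p = 1.3e-15, edgeR's quasi-likelihood test with Benjamini-Hochberg adjustment, 3 of 3 libraries). The others were Vcam1, Ephb4, Nrp2 and Bst1, the last 3 with log2 fold changes of 0.51, 0.37 and 0.72. The venule receptor gene Ackr1 had no UMI in members or capillary-side cells, and Vwf reached only 5.92 CPM in members. Nr2f2 was found in 45.2% of members, 17.5% of capillary-side cells and 20.4% of proximal tubule cells, and after thinning in 18.1, 5.31 and 3.88%, so it is not restricted to endothelium. Whether the vein genes differ as a group was not tested.

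Of 14 genes of arteries and afferent arterioles, 11 were tested, and 3 were higher and 7 lower in members, with a median of -0.95. DESeq2 also called 1 and 6 of them. Efnb2, the ephrin ligand of arterial endothelium, had 61.4, 112 and 73.2 CPM in members and 220, 214 and 211 CPM on the capillary side. Dll4, a ligand of Notch receptors, had 81.3, 43.8 and 59.5 CPM against 225, 154 and 155 CPM, and Sema3g had 29.3, 55.2 and 45.2 CPM against 110, 131 and 121 CPM. The sides did not overlap for any of these, and the log2 fold changes were -1.52, -1.49 and -1.51. Sox17, Hey1, Edn1 and Gja4 were the other lower genes. The higher genes were the elastic fibre gene Eln, the matrix gene Mgp and the chemokine gene Cxcl12, at 21.4, 35.2 and 17.3 CPM over all members, and single members held 53 UMIs of Mgp and 52 of Cxcl12.

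Markers of further beds were mixed. Of 8 glomerular genes, 6 were tested and 2 were lower, Ehd3 and Plat, with log2 fold changes of -0.51 and -0.57 (median of the list -0.39). Of 3 genes of the descending vasa recta, Slc14a1, a urea transporter, and Aqp1, a water channel, were lower, and Scin missed the threshold (median of the list -0.91). Aqp1 was found in 4.045% of members, 5.368% of capillary-side cells and 40.03% of proximal tubule cells, so it is not restricted to endothelium. After thinning, these shares were 1.946, 2.773 and 9.009%. The part of proximal tubule RNA in the Aqp1 difference was not tested. Aqp1 had 129, 131 and 69.6 CPM in members against 252, 161 and 204 CPM, a log2 fold change of -1.18. These levels rest on few cells, since requiring at least 3 UMIs of the selecting genes kept 245 control members and 121 at 15 min but moved the summed level of the list from 187 to 102 CPM in the control and from 190 to 88.1 CPM at 15 min, against 90.8 and 90.4 CPM at 60 min. Slc14a1 was called lower by edgeR but not by DESeq2, and in the control it was higher in members (35.0 against 19.2 CPM). The lymphatic gene Lyve1 had no UMI in members, and Prox1 had 5.76 CPM. The most abundant gene of that list, Flt4, had 133, 122 and 124 CPM in members against 159, 160 and 127 CPM and missed the threshold.

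The IGF axis was uneven. Igfbp5, a binding protein, had 2146, 3852 and 2388 CPM in members and 6065, 6755 and 6196 CPM on the capillary side, a log2 fold change of -1.26. Igfbp7, a related secreted protein, had 614, 249 and 483 CPM against 161, 221 and 289 CPM, and its call (log2 fold change 0.95) was lost with DESeq2. The receptors Igf1r, at 53.9, 41.9 and 60.8 CPM against 55.1, 43.8 and 65.5 CPM, and Igf2r missed the threshold, and the insulin receptor gene Insr was lower with a log2 fold change of -0.78, a call that DESeq2 did not make. In all, 1 of 7 tested genes of the axis was higher and 3 were lower, with a median of -0.31.

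Listed Notch pathway genes were lower in 5 of 9 tested and higher in none, with a median of -0.44, but Lfng, which is not on the list, was higher. Hes1, a Notch target, had 720, 259 and 540 CPM in members and 1270, 404 and 668 CPM on the capillary side. Notch1, Notch4, Dll4 and Hey1 were the others, and DESeq2 called 4 of the 5. Lipid-handling genes were lower in 5 of 8 and higher in 1, the fatty acid transporter Cd36, with a median of -0.49. The fatty acid-binding protein gene Fabp4 had 3800, 2951 and 4314 CPM against 5843, 5279 and 6062 CPM. DESeq2 called Cd36, Fabp4 and Cd300lg of this list.

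Bmp4, a ligand of the BMP pathway, had 43.5, 19.0 and 41.3 CPM in members against 0, 2.99 and 2.39 CPM on the capillary side. Its log2 fold change was 4.17 (SE 0.31, adjusted p = 1.0e-11 by edgeR's quasi-likelihood test with Benjamini-Hochberg adjustment, 3 of 3 libraries). Among 12 tested genes of BMP and TGF-beta signalling, Bmp4 and Ltbp4 were higher and 5 were lower, with a median of -0.10. The lower ones were the inhibitory Smad genes Smad6 and Smad7, the target genes Id1 and Id3, and the receptor gene Tgfbr2. DESeq2 did not call Ltbp4 and Smad7.

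Of 8 tested genes of caveolae and diaphragms, 3 were higher and none lower, with a median of 0.14. Cavin2, which shapes caveolae, had 527, 411 and 440 CPM in members and 151, 120 and 144 CPM on the capillary side, a log2 fold change of 1.68. Cavin3 and Ehd4 had log2 fold changes of 0.34 and 0.23 and were not called by DESeq2. The flow-responsive genes Klf2 and Thbd were higher among 8 tested, with a median of 0.21, and DESeq2 called only Klf2. Of 9 tested genes of VEGF and angiopoietin signalling, Tek and Angpt2 were higher and Flt1 and Nrp1 lower, with a median of -0.15, and DESeq2 called only the lower pair. Nfat5, the transcription factor of the response to hypertonicity, had 405, 257 and 338 CPM in members against 227, 179 and 180 CPM, and 2 of 6 osmotic response genes were higher (median 0.17), the other being Cryab.

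Of 7 genes of class I and II antigen presentation, the class II genes H2-Ab1, H2-Aa, H2-Eb1 and Cd74 were higher in members (median 0.37), and the class I genes H2-K1, H2-D1 and B2m were not called. DESeq2 called H2-Eb1 and Cd74. The summed level of the list was 8642, 10486 and 9916 CPM in members against 9792, 9780 and 10133 CPM, and so lower in members in the control and 60 min libraries. Cd74 had 575, 556 and 653 CPM against 350, 216 and 449 CPM, with up to 255 UMIs in a single member, and 5873 CPM in cells outside the gate. The inflammation list had 4 higher of 6 tested (median 0.59), namely Vcam1, Icam1, Socs3 and Cxcl2, and DESeq2 called Vcam1 and Icam1. Pan-endothelial genes were higher in 2 and lower in 2 of 18 (median 0.09), and of 12 dissociation stress genes 1 was higher and 2 lower (median -0.09). Semaphorins, plexins and neuropilins divided into 3 higher and 4 lower of 13 (median 0.22), basement membrane genes into 2 and 3 of 14 (median -0.12), and endothelial transcription factors into 2 and 6 of 18 (median -0.26). DESeq2 called 1 and 2, 0 and 3, and 1 and 4 of these, and none of the stress genes. No mitochondrially encoded gene passed among 13 tested (median -0.11), nor did any by DESeq2.

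Markers of other cell types were present in members at different levels. The stromal list of 13 genes summed to 66.2, 11.4 and 45.2 CPM in members and 6.39, 0.996 and 27.7 CPM on the capillary side, so it moved with the comparison. Its most abundant gene, Rgs5, stood at 16.3 CPM and was the only one tested and called, Lum was at 0, and 19 members (1.26%) held 2 or more UMIs of the list. Without cells of that kind on either side, 475 genes were higher and 428 lower, and 461 and 419 of them were shared with the counts above. The 8 macrophage genes summed to 62.4, 87.5 and 85.0 CPM in members and 46.3, 42.8 and 74.3 CPM on the capillary side, led by Fcer1g at 46.4 CPM, with none at 0. Fcer1g was the only gene of that list tested and was called higher in members by edgeR (log2 fold change 0.49) but not by DESeq2. The part of macrophage RNA in the differences, including those of Cd74 and the class II genes, was not tested. Proximal tubule genes summed to 2259, 7505 and 2741 CPM in members and 2640, 8943 and 4080 CPM on the capillary side, with 5 of 8 lower in members, and the most abundant was Kap at 1816 CPM. At least 2 UMIs of that list were found in 96.0% of members and 95.9% of capillary-side cells. Thick ascending limb genes summed to 88.8, 74.2 and 348 CPM in members and 128, 83.7 and 389 CPM on the capillary side. The podocyte list summed to 499, 719 and 651 CPM in members and 568, 559 and 653 CPM on the capillary side. Nearly all of it in members was Podxl, at 631 CPM over all members, with Wt1 at 0. Podxl is also on the list of pan-endothelial genes, and the podocyte list summed to only 5.93 CPM in cells outside the gate. Its level in members is therefore no measure of podocyte RNA. Lymphocyte, granulocyte and red blood cell lists each summed to at most 10.2 CPM over all members.

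Members differed among themselves in Igf1, which was found in 122 control cells, 25 at 15 min and 545 at 60 min. Depth was similar, with a median of 3779 UMIs in members with Igf1 and 4000 in those without. The median sum of the capillary genes was 3 UMIs with Igf1 and 7 without, and that of the selecting genes 28 and 18, so genes that vary with the selection had to differ here too. Of 6501 genes tested between these 2 kinds of members, 183 (2.81%) were higher and 169 (2.6%) lower with Igf1. DESeq2 called 45 and 22. The counts were 81 and 53 without the control, 300 and 354 without the 15 min library, 37 and 21 without the 60 min library, and 95 and 85 after thinning, when 2151 genes could be tested.

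Markers of other cell types also moved with Igf1. Stromal genes summed to 126, 0 and 62.8 CPM with Igf1 and 9.21, 14 and 29.1 CPM without, and none could be tested. Leaving out members with 2 or more stromal UMIs, an alternative chosen after seeing the data, gave 196 higher and 181 lower genes, of which 179 and 167 were shared, and kept the calls of all 16 named genes. It moved the log2 fold change of Aqp1 from -2.01 to -3.55 and that of Cldn5 from -2.09 to -2.79. Thick ascending limb genes summed to 113, 350 and 410 CPM with Igf1 and 66.3, 11.7 and 292 CPM without. Slc12a1 of that list was called higher by edgeR but not by DESeq2, and Gpx3 of the proximal tubule list was called lower by edgeR only. At 15 min, where 25 members held Igf1, the levels with and without Igf1 were 1975 and 8760 CPM for proximal tubule genes, 175 and 67.7 CPM for macrophage genes and 196 and 0 CPM for red blood cell genes. Mitochondrially encoded genes were at 42550 and 67312 CPM there. The part of such RNA in the differences was not tested.

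Sema3d was among the genes higher in members with Igf1, with a log2 fold change of 1.42 (SE 0.13, adjusted p = 6.3e-07, edgeR's quasi-likelihood test with Benjamini-Hochberg adjustment, 3 of 3 libraries). Fxyd6 had 279, 237 and 255 CPM with Igf1 and 42.4, 11.7 and 43.5 CPM without, and Fibin had 148, 92.6 and 124 CPM against 27.6, 2.33 and 13.9 CPM. Both pairs were separate in every library. Slco1a4, an organic anion transporter, had 81.5, 92.6 and 93.3 CPM against 7.37, 7 and 18.4 CPM. Its log2 fold change was 2.58, and 3.49 without the 60 min library. Bmp4 and Cyp1b1, a cytochrome P450, had log2 fold changes of 2.31 and 2.29, and both calls were lost without the 60 min library. Flrt2, a transmembrane adhesion molecule, Gm867 and Cryab completed the 8 named genes, with log2 fold changes of 2.25, 2.62 and 2.18. Nr2f2 and Vcam1 were higher as well, by 0.85 and 1.21 on the log2 scale. They were the only called genes of 5 tested vein genes (median 0.33 against -0.0023 over all genes, of which 2.81% were higher).

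Igfbp5 was lower in members with Igf1, at 914, 2325 and 1004 CPM against 3315, 4199 and 3654 CPM in those without. The log2 fold change was -1.58 (SE 0.14, adjusted p = 4.9e-07 by edgeR's quasi-likelihood test with Benjamini-Hochberg adjustment, lower in 3 of 3 libraries). Igfbp3 was lower and Igfbp7 higher, by -1.48 and 1.13 on the log2 scale, and DESeq2 called Igfbp5 and Igfbp7. Cyp26b1 had 58.2, 257 and 110 CPM against 368, 394 and 356 CPM. Tspan8, a tetraspanin, had 3.88, 10.3 and 6.73 CPM against 71.8, 53.7 and 63.5 CPM, the largest decrease by the naming rule, with a log2 fold change of -3.34. It was found in only 44 members, the highest with 33 UMIs. The junction gene Cldn5 had 13.6, 0 and 15.7 CPM against 62.6, 173 and 54.5 CPM, with 41 of its UMIs in a single member.

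The water channel gene Aqp1 had 3.88, 10.3 and 43.5 CPM with Igf1 and 247, 159 and 93.5 CPM without. It was found in 61 members, the highest with 88 UMIs, and in 40.03% of proximal tubule cells. The part of proximal tubule RNA in this difference was not tested. The log2 fold change of Aqp1 was -2.01, and -5.48 without the 60 min library, and its call was lost with DESeq2. S100a4 and Sema3g were also lower, with log2 fold changes of -2.43 and -1.61, and both calls were lost without the 60 min library. Of 6 osmotic response genes, Nfat5, Cryab and the inositol transporter gene Slc5a3 were higher and the taurine transporter gene Slc6a6 lower (median 0.27), and DESeq2 called Cryab and Slc6a6. Of 10 interferon response genes 3 were lower, Isg15, Irf7 and Rsad2 (median -0.33), and none of these by DESeq2. Over all genes tested with against without Igf1, 2.81% were higher and 2.6% lower, with a median of -0.0023. The list counts were not tested against these shares. The immunoglobulin gene Igkc was also named by the rule but rested largely on 1 member at 15 min with 299 UMIs, and DESeq2 did not call it. Its call was also lost without the control library and without the 15 min library. In the latter, its log2 fold change went from -1.64 to -0.58.

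Conditions were compared within members by ratios of CPM with exact conditional binomial 95% intervals, which cover counting error only. At 15 min against the control, 145 of 5479 genes with at least 40 UMIs (2.65%) were at least 2-fold higher and 203 (3.71%) at least 2-fold lower. At 60 min against the control, 237 of 9174 (2.58%) were higher and 92 (1%) lower. At 60 min against 15 min, 459 of 8978 (5.11%) were higher and 239 (2.66%) lower. The counts of gene lists between conditions, given below, stand beside these shares and were not tested against them. The control library enters the first pair of comparisons, and the median log2 ratios were 0.11, 0.01 and -0.11. With a minimum of 100 UMIs the counts were 28 and 106, then 56 and 45, then 198 and 70, given without the number of genes past that minimum.

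Igf1 itself stood at 446 CPM (407 to 488) in control members, 152 CPM (121 to 189) in those of the 15 min library and 397 CPM (379 to 415) in those of the 60 min library. The 15 min value was 0.341 of the control level (0.266 to 0.433). Members were selected on Igf1, Gpr182 and Bgn, so these levels describe the chosen cells and support no difference between conditions. Gpr182 had 118, 101 and 114 CPM, Bgn 524, 481 and 513 CPM, and Sema3d 133, 131 and 169 CPM, with no such gap. Igfbp3 and Igfbp5 were at 2.55 and 1.80 times the control level at 15 min in members, and at 1.06 and 1.11 times on the capillary side. The capillary genes of the selection were themselves at 1.55 times the control level (1.43 to 1.68) in members at 15 min, and their part in these ratios was not tested.

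Genes of the stress response to dissociation stood lower at 15 min than in both other libraries. The 12 stress genes summed to 24274 CPM in control members, 9126 at 15 min and 22829 at 60 min. The 15 min level was 0.376 of the control (0.365 to 0.388), and 9 of 12 genes were at least 2-fold lower and none higher, with a median log2 ratio of -1.96. Over all genes counted, 3.71% were at least 2-fold lower. At 60 min the level was 0.941 of the control (0.928 to 0.953), and no gene passed 2-fold. The capillary side had ratios of 0.506 and 1.12. Against 15 min, the 60 min level in members was 2.5 times as high (2.43 to 2.58), with 8 of 12 genes past 2-fold. Of all genes counted, 5.11% were at least 2-fold higher in that comparison.

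Atf3, a transcription factor induced by cell stress, had the lowest nonzero ratio at 15 min among genes named by rule, with 1677, 32.3 and 958 CPM in the control, 15 min and 60 min libraries. The 15 min ratio was 0.0193 (0.0112 to 0.0310), from 17 and 1775 UMIs. The immediate early gene Fos had 3144, 746 and 3179 CPM, and Egr1 had 1512, 285 and 1417 CPM. The chaperone gene Hsp90aa1 had 2592, 360 and 2186 CPM. Hspd1, a mitochondrial chaperone gene, had 202, 152 and 204 CPM, and Jun and Jund also stayed within 2-fold. Outside the list, the chaperone genes Hsph1 and Hspa1b were 14.5 times (7.62 to 31.8) and 7.61 times (6.36 to 9.18) as high at 60 min as at 15 min.

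**Figure D3:**
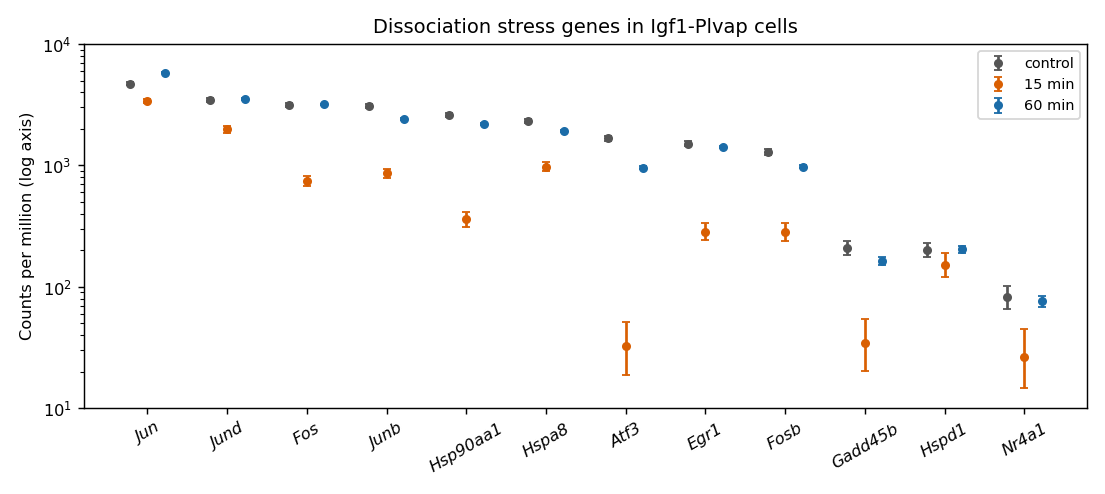
Levels of the 12 dissociation stress genes in members of each library, in CPM on a log axis, with exact 95% Poisson intervals for counting error only. The 15 min library is lowest for each of the 12 genes, by at least 2-fold against the control in 9 of them.

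Inflammatory genes of endothelium followed the same order in their summed level, but not gene by gene. Their list of 11 summed to 3573 CPM in control members, 957 at 15 min and 2105 at 60 min. All 6 genes with enough UMIs were at least 2-fold lower at 15 min than in the control (median log2 ratio -2.93), as were 3.71% of all genes counted. At 60 min against the control, 3 of 9 genes were at least 2-fold lower and 1 was at least 2-fold higher (median log2 ratio -0.77). Over all genes counted there, 1% were lower and 2.58% higher. The summed ratio to the control was 0.268 in members and 0.320 on the capillary side at 15 min, and 0.589 and 0.607 at 60 min, and the difference between the sides was not tested. Socs3, a feedback inhibitor of cytokine signalling, had 1016, 59.0 and 463 CPM, and Icam1, an adhesion molecule, had 820, 207 and 480 CPM. Sele, which encodes E-selectin, had 91.7 CPM in the control and 13.7 at 60 min, and no UMI at 15 min, where it was at least 16.1-fold lower against a floor of 3 counts. The neutrophil chemokine gene Cxcl2 had 84.1 and 21.2 CPM and none at 15 min, at least 14.7-fold lower. Cxcl10 went against this order, with 746, 200 and 82.5 CPM and 0.111 of its control level at 60 min (0.0976 to 0.125). A single control member held 168 of its UMIs, and all 105 UMIs at 15 min came from a single cell.

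Genes higher at 15 min were fewer and partly rested on single cells. Ltc4s, which makes leukotriene C4, had 14.2, 64.7 and 18.0 CPM in the same order, and was found in 21 members at 15 min. Adrenomedullin receptor components were also higher, with Ramp3 at 429, 772 and 469 CPM and Ramp2 at 544, 873 and 608 CPM. Both lay below 2-fold, and the summed level of the adrenomedullin axis at 15 min was 1.55 times the control (1.42 to 1.68). On the capillary side it was 1.22 times the control (1.13 to 1.31), and the difference between the sides was not tested. Mgp, Fbln5 and Cldn5 were named by the rule, and single members at 15 min held 50 of 54, 21 of 31 and 28 of 74 of their UMIs.

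Transcripts of proximal tubule cells moved with the 15 min library. The 8 genes of that list, none at 0 and led by Kap, summed to 3.32 times the control level in members at 15 min (3.16 to 3.50) and to 3.39 times on the capillary side. In cells outside the gate they summed to 44461, 92542 and 30936 CPM. Mitochondrially encoded genes summed to 71643, 62733 and 98261 CPM in members. Their part in the ratios of other genes was not tested, and without both groups of genes 138 genes were at least 2-fold higher and 203 lower at 15 min than in the control.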

How the data were processed

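According to the submitters' processing notes, the authors aligned reads to mm10 and counted UMIs with Cell Ranger 3.1.0. Its aggregation of the kidney libraries made their sequencing depth comparable. The deposited values are UMI counts in whole numbers for 31053 genes and 34034 kidney cells. Cells with 200 to 3000 genes and at most 50% mitochondrial UMIs were kept here, and doublets were handled only through the upper gene limit. The members and the 36 gene lists were chosen with earlier results of these data known. UMIs were summed per library and side, filtered with filterByExpr defaults, scaled by TMM and tested with edgeR 4.0.16 in R 4.3.3, with Benjamini-Hochberg adjustment over all tested genes. DESeq2 1.42.0 was an alternative, as were other filters, blocks, thresholds and depths. The code was tested on simulated data. Other steps used Python 3.11.15, numpy 2.4.6, scipy 1.17.1, pandas 2.3.3 and matplotlib 3.10.9.

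Named genes were the 15 largest log2 fold changes in each direction between sides, and the 8 largest between members with and without Igf1, at an adjusted p under 0.05, at least 50 CPM in the higher group and the same direction in 3 of 3 libraries. Between conditions they were the 10 largest ratios in each direction among genes with at least 40 UMIs whose level in members was at least that outside the gate. Genes of the lists and the 5 markers could be named besides. Proximal tubule cells for comparison had no UMI of the gate's endothelial genes and at least 3 of Slc34a1, Lrp2 and Miox. The markers lie at chromosome 10, 87858265 to 87937042 (Igf1), chromosome 10, 127747276 to 127751732 (Gpr182), chromosome 8, 71497765 to 71511752 (Plvap), chromosome X, 73483602 to 73495933 (Bgn), and chromosome 5, 12383385 to 12588948 (Sema3d), of mm10.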

Additional observations from a re-analysis of the deposited data

Results flagged for a closer look

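In several lists the summed level moved in opposite directions in members and capillary-side cells between the same libraries. Each such difference was not tested, and each value rests on 1 library per condition. At 15 min against the control, genes of arteries and afferent arterioles had a ratio of 1.73 in members and 0.868 on the capillary side, with 50 UMIs of Mgp in a single member at 15 min. Requiring at least 3 UMIs of the selecting genes brought the summed levels in members from 347 and 599 CPM in the control and at 15 min to 332 and 362 CPM. Mitochondrially encoded genes had ratios of 0.876 and 1.01. At 60 min against the control, the ratios in members and on the capillary side were 1.03 and 0.978 for pan-endothelial genes, 1.11 and 0.922 for glomerular genes, and 1.07 and 0.949 for VEGF and angiopoietin signalling. Dissociation stress genes had 0.941 and 1.12, and stromal genes 0.683 and 4.33. At 60 min against 15 min, genes of the descending vasa recta had ratios of 0.477 and 1.24, and antigen presentation genes 0.946 and 1.04. For the descending vasa recta, the stricter requirement left 88.1 CPM in members at 15 min and 90.4 CPM at 60 min, so the level at 60 min was no longer below that at 15 min. Members with the highest counts held up to 88 UMIs of Aqp1 and 15 of Slc14a1.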

How the results depend on the processing

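Between sides, higher and lower genes numbered 471 and 434 as reported, 149 and 108 with DESeq2, 194 and 134 after thinning to 1000 UMIs (4298 genes tested), 144 and 80 with no library block, and 313 and 243 with no upper limit on genes. Leaving out each library in turn gave 243 to 640 higher and 172 to 511 lower genes, lowest without the 60 min library. Other settings moved these counts by less than 1.5 times. Between members with and without Igf1, the counts of 183 and 169 became 45 and 22 with DESeq2, 95 and 85 after thinning, and 37 to 300 and 21 to 354 with each library left out. Between conditions, a minimum of 100 UMIs gave 28 and 106, 56 and 45, and 198 and 70 genes. The share of genes past that minimum is not given here, and why the counts fell was not tested. Without the upper gene limit, members made up 3.61% of kept cells in the control and 10.0% at 60 min. Among members with at least 20 UMIs of the selecting genes, an alternative chosen after seeing the data, Igf1 was found in 61.3, 29.9 and 62.1%. Leaving out cells whose barcode another library also held, likewise added later, gave 484 and 441 genes between sides and 173 and 151 within members. Leaving out members with 2 or more stromal UMIs gave 196 and 181 within members, also added later. Of 326 alternative values for the 30 named genes between sides, 323 kept direction and side of the threshold and none reversed. Of 99 for the 16 within members, 91 did and none reversed. Settings in which a gene could not be tested gave no value and are not in these totals. After thinning, only Fibin, Fxyd6, Aqp1, Cyp26b1 and Igfbp5 of the 16 could be tested. Between sides, Cryab, Ndrg2, Khdrbs3 and Stbd1 could not be tested after thinning. The fold itself moved by more than 1.5 times in 10 values of 6 genes between sides and in 11 values of 5 genes within members. The log2 fold change of Fibin went from 6.14 to 8.76 without the 60 min library, where no capillary-side UMI was left and no fold could be measured. That of Cryab went from 3.26 to 1.71 with no upper limit on genes. Within members and without the 60 min library, Aqp1 went from -2.01 to -5.48 and Flrt2 from 2.25 to 3.73. The causes of these shifts were not tested. No paired analysis was possible because each condition had 1 library, and the library was already the block between sides. The 15 min library, with 125 members, limits precision most, since a floor of 3 counts there equals 5.71 CPM.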

Other observations

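Several transcripts in members came from very few cells. Cxcl9, an interferon-induced chemokine gene, had 223 UMIs at 15 min, all in 1 member, and Igkc had 299 UMIs there, also in 1 member. Ren1, which encodes renin, had 116 UMIs in 3 control members, 84 of them in a single cell, and no UMI at 15 min. Cck, a peptide hormone gene, had 79 UMIs in 1 control member and 14 in 1 member at 60 min. The lymphatic chemokine gene Ccl21a had 287 UMIs in 2 members at 60 min, with 185 in one of them. The levels of these genes describe single cells and no condition.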
